A study of Mus musculus with 9 samples.

Results

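Amino acid transporters are membrane proteins of the solute carrier (Slc) families that move amino acids into cells, out of them, or across the membrane of the lysosome. Macrophages take up amino acids through exchangers, sodium-coupled carriers and uniporters, and release amino acids from digested cargo through lysosomal carriers. Several of these proteins also set the amino acid supply that is read by mTORC1, a kinase complex which is active at the lysosome and promotes protein synthesis. The 10 genes described here were Slc3a2, Slc7a5, Slc7a7, Slc7a8, Slc1a5, Slc38a2, Slc36a1, Slc36a2, Slc43a2 and Slc16a10. The rule names them and uses no measured value, but they were chosen with earlier results of these data known. Each was found on 1 row among the 53465 genes counted.

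RNA-Seq was available for 9 libraries of bone marrow derived macrophages (BMDMs), which were grown with CSF1 at 50 ng/ml from the marrow of male wild-type C57BL/6 mice. The UNX group had 3 untreated libraries, 3 received medium conditioned by pulmonary artery adventitial fibroblasts of control calves (CO-CM), and 3 received medium conditioned by fibroblasts of calves with hypoxia-induced pulmonary hypertension (PH-CM). Fetal bovine serum was added to the conditioned media before use, the labels name both 16 h and 24 h as the time of treatment with a further value between them in the methods, and the amino acid content of the media was not analysed here. Each conditioned medium was pooled over several fibroblast populations, so that no library stands for a single calf. The methods name CSF1 in the growth medium and do not state it for the conditioned media. No group received fresh medium in place of conditioned medium. Products of the fibroblasts, used medium, serum and any loss of CSF1 therefore cannot be told apart in comparisons against UNX. Bovine medium acted on mouse cells in both treated groups, and the methods describe the libraries as biological replicates from repeats of the experiment. Nothing in the labels ties a library to a mouse or a repeat, so p-values measure the spread between these libraries, which may be technical.

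Libraries held between 62017933 and 84314201 counted reads. All 10 macrophage markers examined were detected in each group, with a summed level of 12460 to 13250 CPM in UNX, 19830 to 20810 in CO-CM and 22390 to 24210 in PH-CM libraries. CPM is here the read count of a gene scaled to the reads in all genes tested, after TMM normalization. Among 10 fibroblast markers, 8 were tested and the list summed to 215 to 272 CPM in UNX, 282 to 339 in CO-CM and 263 to 355 in PH-CM libraries; the part of these cells in the results was not tested. The lists for neutrophils and their precursors, B cells, T cells, erythroid cells, mast cells and dendritic cells each summed to at most 5.58 CPM in any library, and Ly6g was at 0 in all groups. In bulk RNA a smaller share of cells that express a gene and less RNA per cell cannot be told apart.

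Start regions are shown for 3 of the genes that were higher with PH-CM than in UNX, to set the sequence before the gene beside its response. RefSeq start sites gave windows for 7 of the 10 genes (12 windows, GRCm38.p6), and 3 short motifs were looked for on both strands, namely CACGTG (the E-box that MiT/TFE factors and others can bind), TGATGNAA (the core of elements bound by ATF4 with C/EBP proteins) and TGANTCA (the AP-1 element). Each line gives 250 bases before and 20 bases after a start, 5′ to 3′ on the strand of the gene, with motifs in capitals.
Slc36a1, chr11:55204090-55204359, plus strand: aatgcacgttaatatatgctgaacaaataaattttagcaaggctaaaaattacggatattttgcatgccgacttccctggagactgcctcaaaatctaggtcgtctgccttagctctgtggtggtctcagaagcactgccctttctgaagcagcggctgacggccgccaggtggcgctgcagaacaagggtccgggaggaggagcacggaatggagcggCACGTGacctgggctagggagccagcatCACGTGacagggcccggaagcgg
Slc43a2, chr11:75531444-75531713, plus strand: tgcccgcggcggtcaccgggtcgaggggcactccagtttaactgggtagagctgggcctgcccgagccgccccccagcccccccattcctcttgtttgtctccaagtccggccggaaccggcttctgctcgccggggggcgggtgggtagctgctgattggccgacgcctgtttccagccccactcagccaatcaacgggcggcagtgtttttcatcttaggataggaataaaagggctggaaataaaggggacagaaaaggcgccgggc
Slc7a7, chr14:54417925-54418194, minus strand: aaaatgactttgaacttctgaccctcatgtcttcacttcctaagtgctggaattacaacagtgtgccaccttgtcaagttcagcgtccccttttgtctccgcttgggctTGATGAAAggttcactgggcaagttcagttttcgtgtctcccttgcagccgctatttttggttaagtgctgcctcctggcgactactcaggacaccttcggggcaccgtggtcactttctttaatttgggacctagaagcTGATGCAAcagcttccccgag
CACGTG was found at 2 places in the Slc36a1 window, positions 220 and 248 counted from its first base, and in no window of the other 6 members that have one. Among the 32851 mouse windows of 300 bases, 7.15% held this motif at least once and 0.594% at least 2 times. Slc7a7 has 5 windows, of which 2 held TGATGNAA and 3 did not. The window shown has it at positions 110 and 250. The other window with the motif overlaps the one shown, and its match at position 8 is the same site as position 250. Of all single windows, 3.97% held this motif at least once and 0.07% at least 2 times. TGANTCA was in none of the members' windows and in 7.81% of all windows, and the Slc43a2 window held none of the 3 motifs. No motif overlapped another in these windows.

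The 10 genes are protein-coding and lie on 7 mouse chromosomes (GENCODE M21, GRCm38). Of the CD98 genes, Slc3a2 lies at chr19:8706882-8723369 on the minus strand and Slc7a5 at chr8:121881150-121907694 on the minus strand. Slc7a7 (chr14:54369442-54417780) and Slc7a8 (chr14:54722209-54781946) are on the minus strand of the same chromosome. Slc1a5 lies at chr7:16781340-16798274 on the plus strand and Slc38a2 at chr15:96687392-96699730 on the minus strand. Slc36a2 (chr11:55158470-55185077, minus strand), Slc36a1 (chr11:55204350-55236330, plus strand) and Slc43a2 (chr11:75531694-75577575, plus strand) share chromosome 11, and Slc16a10 lies at chr10:40033532-40142258 on the minus strand. All counts and RPKM refer to the joined exons of a gene, untranslated parts included.

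Most of these genes differed from UNX with conditioned medium of either kind, in both directions. Calls required a fold change of at least 1.2 and an FDR no higher than 0.05, from the edgeR quasi-likelihood test with Benjamini-Hochberg adjustment over 11950 genes. With PH-CM, 10 of 10 genes were called against UNX, 5 higher and 5 lower, where 63% of all genes tested were called, 31.3% higher and 31.7% lower. With CO-CM, 8 were called against UNX, 3 higher and 5 lower, beside 57% of all genes, 28% higher and 28.9% lower. Between PH-CM and CO-CM, 9 were called, 5 higher with PH-CM and 4 lower, beside 27.1% of all genes, 12.2% higher and 15% lower. Both comparisons against UNX share the untreated libraries. So many genes changed that a call against UNX was more common than no call. Of the 10 genes 5 fell with both media (Slc7a5, Slc7a8, Slc1a5, Slc38a2 and Slc16a10), 3 rose with both (Slc36a1, Slc36a2 and Slc43a2), and Slc3a2 and Slc7a7 were called with PH-CM but not with CO-CM. Slc36a2 passed the filter on low counts only through the treated groups, so the filter favoured its calls against UNX. Those calls add no support to these counts. The median log2 fold change of the 10 genes was 0.002 for PH-CM against UNX, -0.232 for CO-CM against UNX and 0.313 for PH-CM against CO-CM, where the medians of all genes tested were 0.007, 0 and -0.006. The 3 libraries of one group all lay above those of the other in 10, 9 and 9 of the members, respectively, and in 77.7%, 72% and 50.2% of all genes tested.

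**Figure D1:**
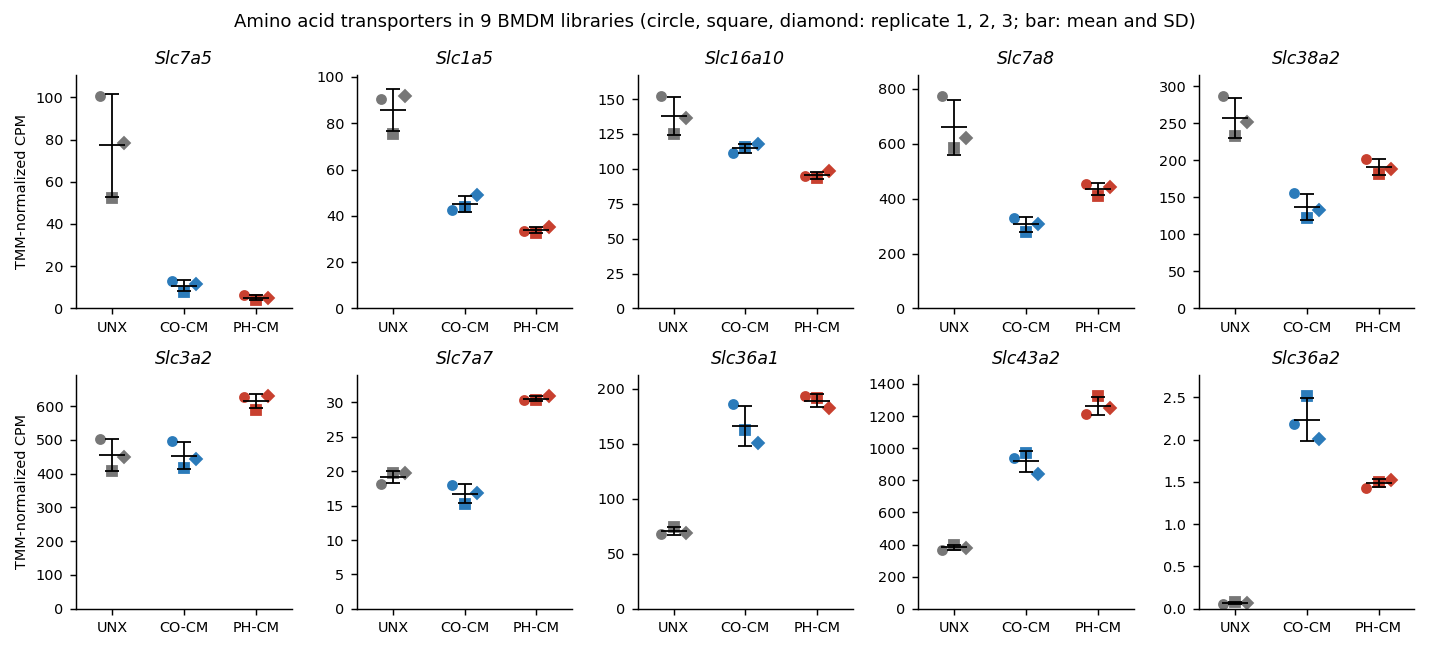
TMM-normalized CPM of the 10 transporters (vertical axes from 0, a separate scale for each gene) in each of the 9 libraries; symbols mark replicate numbers, bars the mean and SD of 3 libraries. Slc7a5 falls from a mean of 77.2 CPM in UNX to 10.8 (CO-CM) and 5.09 CPM (PH-CM), while Slc43a2 climbs from 381 to 917 and 1262.

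**Figure D2:**
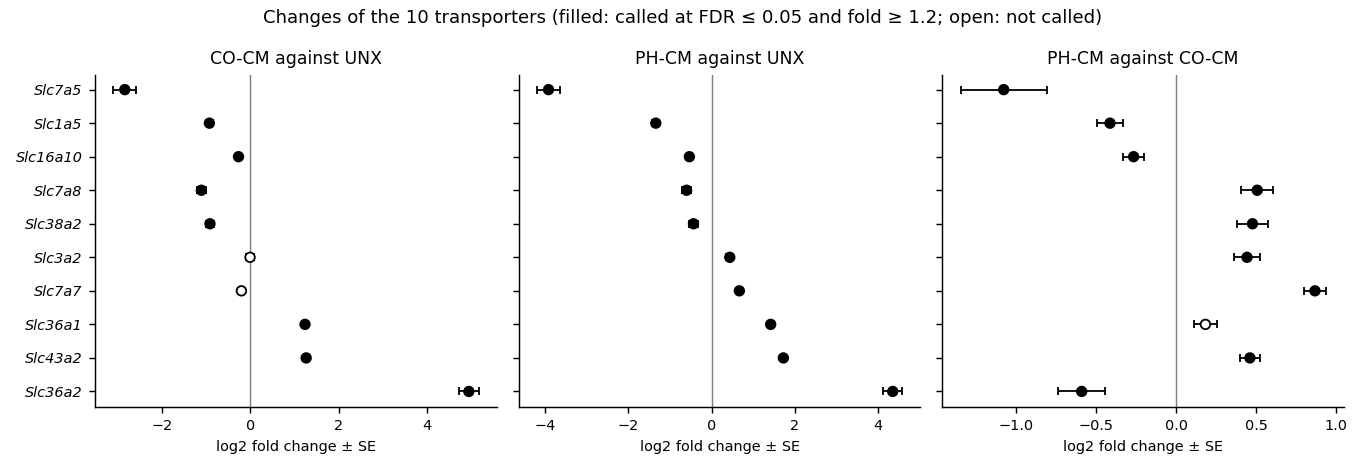
Log2 fold change with its SE (horizontal axes, a separate scale for each panel) of the 10 transporters in the 3 comparisons; filled points were called and open points were not. Slc7a8 and Slc38a2 lie left of 0 against UNX and right of 0 in PH-CM against CO-CM, and Slc3a2 lies at 0 in CO-CM against UNX.

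Slc7a5 encodes LAT1, the light chain that exchanges large neutral amino acids such as leucine for intracellular glutamine. It had the greatest fall among the 10 genes with both media. Its level in the UNX libraries was 101, 52.3 and 78.6 CPM, in the CO-CM libraries 12.9, 7.69 and 11.8 CPM and in the PH-CM libraries 6.16, 4.03 and 5.10 CPM. The 3 groups did not overlap, although its UNX libraries differed from each other by more than those of any other member (a coefficient of variation of 31.4%). The fall was 15.1-fold with PH-CM (log2 fold change -3.92 ± 0.28, FDR 4.53e-07) and 7.15-fold with CO-CM (-2.84 ± 0.26, FDR 4.09e-06), and the level with PH-CM was 2.11-fold below that with CO-CM (-1.08 ± 0.27, FDR 0.00986). Of all genes tested, 0.736% changed by more with PH-CM and 0.812% by more with CO-CM. In this and the following comparisons the value after ± is the SE of the fit.

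Slc7a8 encodes LAT2, a light chain with a wider range of neutral substrates than LAT1. Its level was 775, 584 and 620 CPM in UNX libraries, 331, 279 and 309 CPM with CO-CM and 454, 411 and 442 CPM with PH-CM. All treated libraries lay below all untreated ones, and all PH-CM libraries above all CO-CM libraries. Slc7a8 fell 2.15-fold with CO-CM (-1.11 ± 0.10, FDR 5.03e-06) and 1.51-fold with PH-CM (-0.60 ± 0.10, FDR 0.000325), and was 1.42-fold higher with PH-CM than with CO-CM (0.51 ± 0.10, FDR 0.00297).

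Slc7a7 encodes y+LAT1, the light chain that exports cationic amino acids such as arginine in exchange for neutral amino acids and sodium. Its level was 18.2, 19.7 and 19.7 CPM in UNX libraries, 18.1, 15.3 and 16.8 CPM with CO-CM and 30.3, 30.4 and 30.9 CPM with PH-CM. The PH-CM libraries stood apart from the other 6, and the highest CO-CM library lay just below the lowest UNX library. Slc7a7 rose 1.59-fold with PH-CM against UNX (0.67 ± 0.07, FDR 6.61e-06) and 1.82-fold against CO-CM (0.87 ± 0.07, FDR 6.56e-06). With CO-CM its log2 fold change against UNX was -0.20 ± 0.07 (FDR 0.0226), which is under the fold threshold. Slc7a7 overlaps Oxa1l on the opposite strand of chromosome 14, and the counting is described without a setting for strand. Oxa1l was at 50.3, 59.1 and 56.0 CPM in UNX, CO-CM and PH-CM libraries on average and was called in no comparison.

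Slc3a2 encodes the CD98 heavy chain, which carries each of these light chains to the cell surface. Its level was 504, 409 and 449 CPM in UNX libraries, 497, 418 and 443 CPM with CO-CM and 626, 590 and 630 CPM with PH-CM. UNX and CO-CM libraries overlapped throughout their range, and every PH-CM library lay above both. The log2 fold change was 0.44 ± 0.08 for PH-CM against UNX (FDR 0.000676), 0.44 ± 0.08 for PH-CM against CO-CM (FDR 0.00195) and -0.00 ± 0.08 for CO-CM against UNX (FDR 0.966). Against UNX, Slc3a2 thus rose with PH-CM where its most abundant light chain, Slc7a8, fell, and between the media both were higher with PH-CM.

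Because a light chain works as a pair with the heavy chain, their levels were also set beside each other. Levels of different genes were compared as RPKM, which accounts for the length of the exons. The 6 light chains of CD98 (Slc7a5, Slc7a6, Slc7a7, Slc7a8, Slc7a10 and Slc7a11) summed to 170.6 ± 30.3 RPKM in UNX, 72.8 ± 8.22 with CO-CM and 103.7 ± 6.69 with PH-CM (mean ± SD, n = 3), and Slc3a2 was at 132.4 ± 15.6, 125.8 ± 13.6 and 172.3 ± 7.74 RPKM. The ratio of Slc3a2 to the summed light chains was 0.782 ± 0.045 in UNX (0.729 to 0.810), 1.73 ± 0.050 with CO-CM (1.675 to 1.773) and 1.66 ± 0.039 with PH-CM (1.619 to 1.691). Heavy chain mRNA was thus below light chain mRNA in all untreated libraries and above it in all treated ones. The mean log2 ratio was 1.147 higher with CO-CM and 1.091 higher with PH-CM than in UNX, with an exact two-sided permutation p of 0.1 in each, which is the smallest p that 3 libraries against 3 allow (0.15 after Benjamini-Hochberg adjustment over the 3 comparisons). PH-CM and CO-CM differed by -0.056 (exact permutation p = 0.3) and their libraries overlapped. The ratio was reached in different ways, since with CO-CM the light chains were lower and Slc3a2 was not called, and with PH-CM the light chains were lower and Slc3a2 was higher.

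Slc7a8 supplied most of the light chain mRNA in each group, namely 79.7%, 82.6% and 82.9% of the RPKM sum in UNX, CO-CM and PH-CM libraries on average. The smaller shares changed order. Slc7a5 held 12.4 ± 2.20% in UNX libraries, 3.88 ± 0.672% with CO-CM and 1.30 ± 0.209% with PH-CM (SD, n = 3), with no overlap between groups. The share of Slc7a7 went from 3.57% to 6.80% and 8.79%, so that it was second to Slc7a8 with PH-CM, while with CO-CM it overlapped with Slc7a6. Slc7a11, the cystine and glutamate exchanger xCT, held 0.0778% in UNX, 0.239% with CO-CM and 2.88% with PH-CM. Slc7a6, which encodes y+LAT2, held 4.29%, 6.52% and 4.08%, although its own level fell with CO-CM (log2 fold change -0.55, FDR 0.0029) and PH-CM (-0.72, FDR 0.000421), and Slc7a10 had 2 reads over all 9 libraries. No test was made on these shares.

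**Figure D3:**
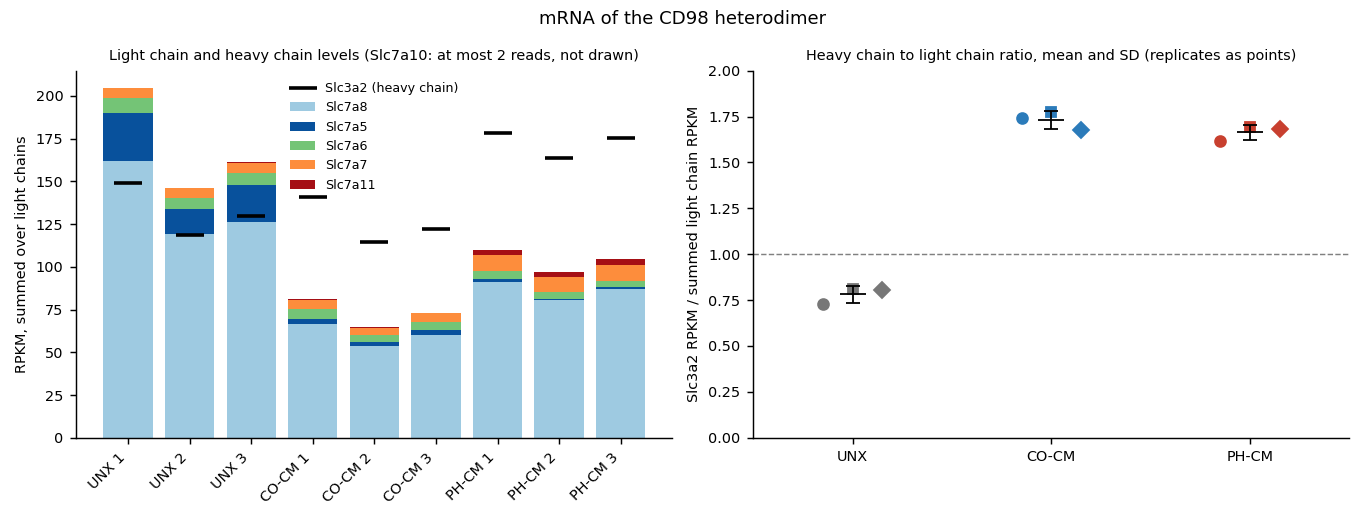
Left, RPKM of 5 CD98 light chains, stacked, and of the heavy chain Slc3a2 (black dashes) in each library; right, the ratio of Slc3a2 to the summed light chains per library with the mean and SD of each group. The dashes lie below the top of the stack in all 3 UNX libraries and above it in the 6 treated libraries, where the ratio lies between 1.619 and 1.773.

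Slc1a5 and Slc38a2 are sodium-dependent carriers of glutamine and other small neutral amino acids, and both fell with both media. Slc1a5 encodes ASCT2, an obligatory exchanger. Its level was 90.2, 75.1 and 91.8 CPM in UNX libraries, 42.4, 44.0 and 49.0 CPM with CO-CM and 33.6, 32.8 and 35.3 CPM with PH-CM. The groups were ordered UNX, CO-CM, PH-CM without overlap. The log2 fold change was -0.92 ± 0.08 with CO-CM (FDR 3.43e-06) and -1.34 ± 0.08 with PH-CM (FDR 1.73e-07), and that of PH-CM against CO-CM was -0.41 ± 0.08 (FDR 0.00277). Slc38a2 encodes SNAT2, a carrier known to be induced when amino acids are scarce. Its level was 287, 234 and 252 CPM in UNX libraries, 157, 122 and 132 CPM with CO-CM and 202, 181 and 188 CPM with PH-CM. Here the order was UNX, PH-CM, CO-CM, again without overlap. The log2 fold change was -0.91 ± 0.10 with CO-CM (FDR 1.51e-05), -0.43 ± 0.10 with PH-CM (FDR 0.00214) and 0.48 ± 0.10 for PH-CM against CO-CM (FDR 0.00336).

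Slc36a1 and Slc36a2 encode the proton-coupled carriers PAT1 and PAT2, of which PAT1 is known on lysosomes and PAT2 as a surface protein of brown and beige adipocytes. Both rose with both media. Slc36a1 was at 68.3, 74.6 and 68.6 CPM in UNX libraries, 186, 163 and 150 CPM with CO-CM and 193, 191 and 182 CPM with PH-CM. Treated and untreated libraries were far apart, and the treated groups overlapped. Slc36a1 rose 2.36-fold with CO-CM (1.24 ± 0.07, FDR 2.12e-07) and 2.68-fold with PH-CM (1.42 ± 0.07, FDR 5.13e-08). It was the only one of the 10 genes not called between PH-CM and CO-CM, with a log2 fold change of 0.18 ± 0.07 (FDR 0.0723); without CO-CM replicate 1 the value was 0.271 (FDR 0.00523) and the gene was called.

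Slc36a2 was nearly absent from untreated cells. Its counts were 4, 6 and 6 reads in the UNX libraries, 149, 168 and 143 with CO-CM and 96, 93 and 96 with PH-CM, or 0.0617, 0.0795 and 0.0698 CPM, 2.18, 2.51 and 2.01 CPM, and 1.428, 1.497 and 1.519 CPM. No 2 groups overlapped, and CO-CM gave the highest levels. The log2 fold change was 4.95 ± 0.22 with CO-CM (FDR 3.08e-08) and 4.35 ± 0.23 with PH-CM (FDR 5.16e-08), both resting on 16 reads in UNX. PH-CM was below CO-CM by 0.59 ± 0.15 on the log2 scale (FDR 0.0101). The gene passed the filter on low counts only through the treated groups, so a change against UNX was favoured by its being tested. Of all genes tested, 0.0586% changed by more with CO-CM and 0.377% by more with PH-CM. This rank adds no support, because the filter favoured such a change. Slc36a2 lies on chromosome 11 beside its relatives, with 6762 bases to Slc36a3 and 19273 bases to Slc36a1. Over the UNX, CO-CM and PH-CM groups Slc36a3 had 3, 13 and 22 reads.

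Slc43a2 and Slc16a10 are uniporters, which let amino acids pass down their gradient. Slc43a2 encodes LAT4, which carries branched-chain amino acids, phenylalanine and methionine. Its level was 369, 395 and 380 CPM in UNX libraries, 937, 972 and 842 CPM with CO-CM and 1212, 1324 and 1251 CPM with PH-CM. The groups were ordered UNX, CO-CM, PH-CM, each well apart from the next. The log2 fold change was 1.27 ± 0.06 with CO-CM (FDR 7.01e-08), 1.73 ± 0.06 with PH-CM (FDR 5.03e-09) and 0.46 ± 0.06 for PH-CM against CO-CM (FDR 0.000282). It overlaps the antisense gene Gm45606, which was at 8.21, 16.8 and 17.4 CPM in the 3 groups on average and moved by 1.08 with PH-CM and 1.03 with CO-CM on the log2 scale; without a stated strand setting, reads of the pair cannot be told apart.

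Slc16a10 encodes TAT1, which carries aromatic amino acids. Its level was 152, 125 and 136 CPM in UNX libraries, 111, 116 and 118 CPM with CO-CM and 94.5, 93.5 and 98.2 CPM with PH-CM. The order was UNX, CO-CM, PH-CM without overlap, in small steps. The fall was 1.45-fold with PH-CM (-0.53 ± 0.06, FDR 2.83e-05). With CO-CM against UNX (-0.27 ± 0.06, FDR 0.00392) and with PH-CM against CO-CM (-0.27 ± 0.06, FDR 0.00848) it was 1.202-fold and 1.203-fold, close to the threshold. When replicate numbers entered the model as a block, the value for CO-CM against UNX was -0.262 (FDR 0.00121), under the fold threshold, so the call was lost; each of these 2 calls was lost under 9 of 20 alternatives.

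Per length of exon, the same 10 genes covered a wide range and were reordered by the media. In UNX libraries Slc7a8 (135.8 RPKM) and Slc3a2 (132.4) were highest and overlapped, followed by Slc38a2 (57.3) and Slc43a2 (39.1). Slc7a5 (21.5), Slc1a5 (21.1) and Slc16a10 (19.3) came next and overlapped in the order given, with Slc36a1 (12.9), Slc7a7 (5.95) and Slc36a2 (0.0222 RPKM) below them. With PH-CM the order was Slc3a2 (172.3), Slc43a2 (124.2), Slc7a8 (86.0), Slc38a2 (40.8), Slc36a1 (33.2), Slc16a10 (12.8), Slc7a7 (9.10), Slc1a5 (8.03), Slc7a5 (1.36) and Slc36a2 (0.450 RPKM). With CO-CM it was the same for the first 3 except in level, Slc3a2 at 125.8, Slc43a2 at 89.5 and Slc7a8 at 60.1 RPKM, and Slc38a2 (29.07) and Slc36a1 (29.02) overlapped. Slc7a5 thus went from the level of Slc1a5 in UNX to below Slc7a7 in both treated groups. The RPKM of Slc38a2 rests on 4626 exon bases, whereas the annotation used here gives 8838; with that length its UNX level would be 30.0 ± 3.59 RPKM (SD, n = 3), below Slc43a2. In the treated groups it would be 15.2 ± 2.27 with CO-CM and 21.3 ± 1.52 with PH-CM, below Slc36a1 in both. The lengths of the other 9 genes were equal in both.

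Libraries with the same replicate number in the labels shared part of their deviation. In each group replicate 2 was lowest for Slc7a5, Slc7a8, Slc3a2 and Slc38a2, and replicate 1 was highest for Slc7a5, Slc7a8 and Slc38a2. Replicate 3 was highest for Slc1a5 and replicate 2 for Slc43a2 in all 3 groups. The remaining genes had no replicate that was highest in all groups.

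The pattern over the 9 libraries most like that of each member was found as the smallest root mean square difference of centred log2 CPM. Slc7a8 and Slc38a2 were the most alike pair among the members, at 0.097. Slc43a2 was nearest to Sidt2 (0.037), a lysosomal membrane protein gene, and to Ulk1 (0.063), the kinase that starts autophagy. Slc36a1 was nearest to Kif13b (0.048) and Arid5b (0.084), and Slc36a1 and Slc43a2 were 0.154 apart. Slc1a5 was nearest to Manf (0.062), a secreted protein of the endoplasmic reticulum, and Nup37 (0.068), a nuclear pore subunit. Slc7a5 was nearest to Nanos1 (0.226, Pearson r 0.996) and to Polq (0.281, Pearson r 0.986), a DNA repair polymerase. For Slc36a2 the nearest were Tm4sf5 (0.467) and Prdm1 (0.514). Slc7a5 and Slc36a2 lay further from their nearest genes than the other members did. Slc16a10 was nearest to Trmt1 (0.038) and Bola2 (0.046), Slc3a2 to Rbm47 (0.056) and Zfp407 (0.064), Slc7a7 to Arpc3 (0.078) and Mtmr10 (0.085), and Slc38a2 to Tanc1 (0.076) and Jade1 (0.085). These distances are descriptions over libraries that share depth and replicate numbers.

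Other amino acid transporters also changed in both directions. Of 46 further transporter genes, 18 passed the filter. With PH-CM 15 of these were called against UNX, 10 higher and 5 lower, and with CO-CM 14 were called, 10 higher and 4 lower. Between PH-CM and CO-CM 10 were called, 5 in each direction. These are 83.3%, 77.8% and 55.6% of the 18, where 63%, 57% and 27.1% of all genes tested were called. Their median log2 fold change was 0.291, 0.385 and 0.057 in the 3 comparisons. The greatest fall with both media was that of Slc7a1, the arginine and lysine carrier CAT1, at 182, 123 and 145 CPM in UNX, 41.9, 27.9 and 37.1 CPM with CO-CM and 23.4, 16.8 and 20.5 CPM with PH-CM (-2.89 ± 0.19 with PH-CM, FDR 2.44e-07; -2.07 ± 0.18 with CO-CM, FDR 3.04e-06). Replicate 2 was lowest in each group, as for Slc7a5. Slc1a4, which encodes ASCT1 and is related to Slc1a5, fell by 2.496 with PH-CM (FDR 5.04e-07) and by 2.05 with CO-CM (FDR 2.44e-06) on the log2 scale.

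Slc7a11 had the greatest rise of these 18 genes, and nearly all of it was seen with PH-CM. Its level was 2.22, 1.51 and 1.68 CPM in UNX, 2.60, 2.37 and 2.42 CPM with CO-CM and 44.7, 36.5 and 45.2 CPM with PH-CM. It was called higher with CO-CM (0.46 ± 0.15, FDR 0.0184) and with PH-CM (4.56 ± 0.14, FDR 1.57e-09), and the difference between the media was 4.10 ± 0.13 (FDR 2.57e-08). Slc7a2, the cationic carrier CAT2, was 11.03, 11.38 and 11.36 CPM in UNX, 20.3, 24.7 and 23.8 CPM with CO-CM and 12.4, 14.2 and 14.9 CPM with PH-CM. It rose by a log2 fold change of 1.03 with CO-CM (FDR 3.46e-06), and PH-CM was below CO-CM (-0.73, FDR 0.00014). Slc15a3, a lysosomal carrier of histidine and peptides, was higher with PH-CM than with CO-CM by 0.74 (FDR 5.13e-05).

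From this list 6 lysosomal carriers were picked for their location after the values were seen, and are given as a description beside Slc36a1. With each medium 5 of the 6 were called higher and none lower than in UNX, where 31.3% (PH-CM) and 28% (CO-CM) of all genes were called higher. Slc38a9, the arginine sensor and carrier of the lysosome, rose by 0.73 with CO-CM (FDR 1.12e-06) and 0.77 with PH-CM (FDR 5.37e-07). Ctns, the cystine exporter, rose by 0.66 and 0.87 (FDR 1.55e-06 and 1.4e-07), and Slc38a7, a glutamine exporter, by 0.36 and 0.43 (FDR 0.000865 and 0.000216). Slc15a3 also rose with both. Pqlc2, the exporter of cationic amino acids, rose with PH-CM (0.66, FDR 9.06e-07), was not called with CO-CM (0.15, FDR 0.025), and was higher with PH-CM than with CO-CM (0.52, FDR 3.31e-05). Slc15a4, a carrier of histidine and peptides, had log2 fold changes of 0.63 for CO-CM (FDR 5.94e-06), 0.03 for PH-CM (FDR 0.626) and -0.60 for PH-CM against CO-CM (FDR 3.65e-05).

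**Figure D4:**
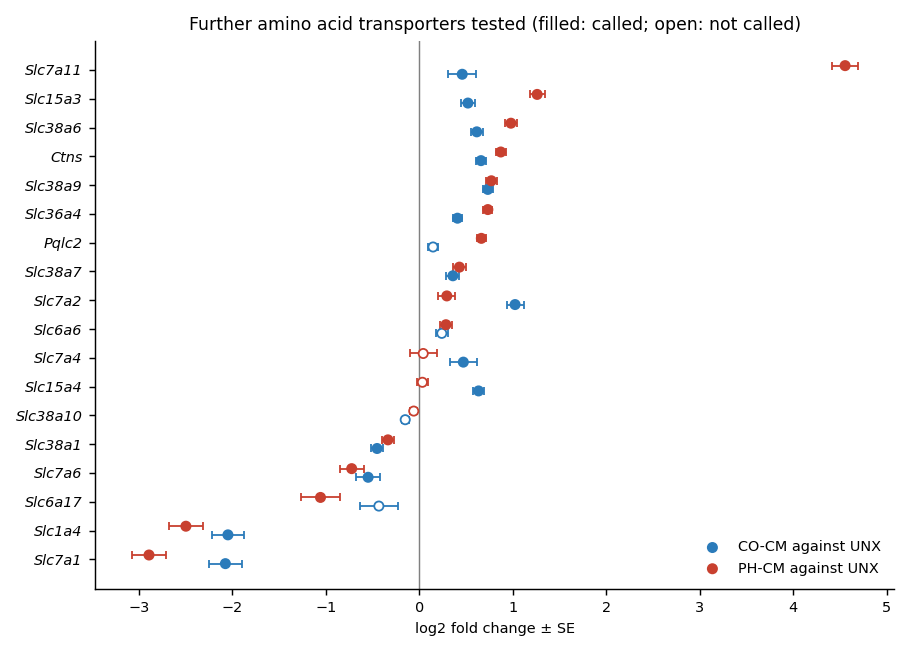
Log2 fold change with its SE against UNX of the 18 further amino acid transporters that passed the filter, for CO-CM (blue) and PH-CM (red); filled points were called. Slc7a11 stands alone at 4.56 with PH-CM against 0.46 with CO-CM, and Slc7a1 and Slc1a4 lie at the other end with both media.

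Genes that sense amino acids or relay them to mTORC1 were counted as a list of 44, all of which passed the filter. With PH-CM 29 were called against UNX (18 higher, 11 lower), with CO-CM 22 (13 higher, 9 lower), and between the media 17 (7 higher with PH-CM, 10 lower). These are 65.9%, 50% and 38.6% of the list, beside the shares of all genes given above. Rragd, a Rag GTPase of the lysosomal surface, was 20.4, 29.4 and 27.2 CPM in UNX, 75.7, 62.4 and 68.8 CPM with CO-CM and 66.2, 61.6 and 63.5 CPM with PH-CM. It rose with both media (1.42 ± 0.12 with CO-CM, FDR 2.18e-06; 1.31 ± 0.12 with PH-CM, FDR 2.83e-06), as did Slc36a1 and Slc43a2. Rragb, its relative, fell by 1.75 with PH-CM (FDR 2.11e-05) and by 0.88 with CO-CM (FDR 0.00186), at levels of at most 1.98 CPM. It passed the filter through its 3 UNX libraries, with only 1 treated library above 1 CPM, so a fall was favoured by its being tested.

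With CO-CM the greatest rises after Rragd were those of Fnip2, the folliculin partner (1.17 ± 0.09, FDR 1.3e-06), and Tfeb, a transcription factor for lysosomal genes (0.98 ± 0.09, FDR 3.61e-06). Tfeb was lower with PH-CM than with CO-CM by 0.76 on the log2 scale (FDR 8.99e-05), and against UNX its value with PH-CM was 0.23 (FDR 0.0358), which was not called. Ddit4, an inhibitor of mTORC1 signaling that is induced by several stresses, was 3.77, 4.93 and 4.70 CPM in UNX, 4.80, 4.28 and 5.06 CPM with CO-CM and 13.6, 15.6 and 14.9 CPM with PH-CM. It was higher with PH-CM than in UNX (1.72 ± 0.11, FDR 3.1e-07) and than with CO-CM (1.64 ± 0.11, FDR 3.13e-06), and was not called with CO-CM (0.07 ± 0.12, FDR 0.587). Sesn1, a sestrin, was lower with PH-CM than with CO-CM (-0.85 ± 0.12, FDR 0.000264). Its mean level was 85.7 CPM in UNX, 152.9 CPM with CO-CM and 85.07 CPM with PH-CM. Against UNX it rose with CO-CM (0.84 ± 0.11, FDR 8.66e-05) and was not called with PH-CM (-0.01 ± 0.11, FDR 0.935).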

How the data were processed

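RNA-Seq was made from 9 BMDM libraries, 3 per group, grouped and numbered by their labels. The authors aligned reads to GRCm38 with STAR and counted them per gene with featureCounts 1.6.2, and the deposited counts are whole reads without normalization. RPKM values were deposited by the authors and scale these counts to exon length and counted reads of the library, without a composition factor. The authors' comparison tables hold log2 fold changes, p-values and FDR and were not used. Most counts under 20 were even (81.4% to 83.8% per library), so each mate of a pair appears to be counted, and counting error is larger than the counts alone imply.

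Here edgeR 4.0.16 was used in R 4.3.3. Genes over a CPM of 1 in 3 or more libraries (11950 of 53465) were normalized by TMM and fitted in one quasi-likelihood model with a mean per group; the SE is the log2 fold change divided by the square root of F. Calls needed a fold change of 1.2 or more and a Benjamini-Hochberg FDR, over all genes tested, of 0.05 or less. The fit was checked on simulated data with 200 changed genes. The heavy to light chain ratio was compared by a two-sided exact permutation test with scipy 1.17.1. Coordinates and exons come from GENCODE M21 of GRCm38, promoter windows from RefSeq, and 53274 gene identifiers matched reference names.

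The 10 genes and the lists were chosen with earlier results of these data known. Named are all 10 genes, the 2 genes most like each in pattern (centred log2 CPM, prior count 2), of which 1 is not reported here, the CD98 light chains, and from each list the 3 called genes with the greatest change in each comparison; other genes are named as overlapping, neighbouring or lysosomal. Deviations from the group means correlated in all 9 pairs of same-numbered libraries (r 0.276 to 0.484), which meets the rule for paired numbers, although no source ties them to a day or mouse. The fits reported have no block; the block was run as an alternative. No pair of libraries of one group was a duplicate (chi-square per gene at least 8.91). Alternatives were the edgeR exact test, DESeq2 1.42.0, other scalings and filters, a fit of 2 groups, the replicate block, counts divided by 2, other fold thresholds and each library left out.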

Additional observations from a re-analysis of the deposited data

How the results depend on the processing

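Of the 30 changes of the 10 transporters, 25 kept their call and direction in all of up to 20 alternatives each (573 of 600 values). The change of Slc3a2 with CO-CM against UNX, which was never called, was above 0 with the DESeq2 Wald test (0.001), DESeq2 size factors (0.001), upper-quartile factors (0.062), only the 2 groups in the fit (0.003), and without UNX replicate 1 (0.061), CO-CM replicate 2 (0.050) or CO-CM replicate 3 (0.012), and reached -0.090 without UNX replicate 2; the cause was not tested. Slc7a7 was called lower with CO-CM with library size alone (-0.267, FDR 0.00779). Slc16a10 lost its call for CO-CM against UNX (alternatives from -0.347 to -0.199) and for PH-CM against CO-CM (-0.304 to -0.250) in part of the alternatives. Of the calls of the members, the replicate block changed only that of Slc16a10 with CO-CM against UNX, as given above; the ratio, compared within pairs of replicate numbers, had exact permutation p of 0.25, 0.25 and 0.5, where 0.25 is the smallest that 3 pairs allow.

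At a fold change of at least 2, the number called for PH-CM against UNX, CO-CM against UNX and PH-CM against CO-CM was 5, 5 and 1 members, 5, 3 and 1 further transporters, and 6, 2 and 1 sensing genes, by the construction of the threshold. From CPM in place of RPKM the log2 ratio of heavy to light chains was 1.001 higher with PH-CM than in UNX and -0.128 for PH-CM against CO-CM, and without Slc7a11 the latter was -0.018. With one library left out in turn, 10 members were called for PH-CM against UNX, 7 to 8 for CO-CM against UNX and 8 to 10 for PH-CM against CO-CM. Upper-quartile scaling moved the median of all genes by 0.066 for CO-CM against UNX and library size alone by -0.069, with 3892 higher and 3015 lower calls or 2826 and 3999, where the fit reported had 3351 and 3455. Slc36a2 in UNX is limited by its 16 reads.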
